A study of Mus musculus with 16 samples.

Results

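Collagen genes were taken as all protein-coding mouse genes whose symbol is Col, a number, the letter a and a number, as in Col1a1. The gene count table held 44 of them among 48795 genes, and 43 reached 10 counts in 4 or more of the 16 libraries. The exception was Col9a1, a chain of a cartilage collagen. Of these 43 members, 42 passed the filter on low counts and were tested. Col4a6 did not pass it, with 0 to 21 counts in a library. By class, the members were 11 fibrillar genes, 8 fibril-associated (FACIT) genes, 6 type IV genes of basement membranes, 6 type VI genes, 4 transmembrane genes, 3 network-forming genes, 2 multiplexins, the anchoring fibril gene Col7a1 and 2 others, Col26a1 and Col28a1.

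Bulk RNA of lumbar dorsal root ganglia, L4 to L6, was sequenced from mice in which a single sciatic nerve had been crushed. These ganglia hold the cell bodies of the sensory neurons whose axons run in that nerve, together with glia, vessels and connective tissue. The 4 groups of 4 libraries were injured and naive ganglia at 24 h and injured and naive ganglia at 72 h, with naive ganglia of the same animals as controls. All groups shared the dissociation of the ganglia, a Percoll step named in the labels, total RNA and TruSeq library preparation, and the labels give no strain, sex, age or genotype. Per the series text there were 4 mice at a time point, but the labels do not tie an injured library to a naive library of the same mouse, so the groups were compared without pairing. The naive ganglia came from mice that carried a crushed nerve, which limits them as uninjured controls. Both differences between times share libraries with the injury comparisons: the 72 h minus 24 h difference uses all 16 libraries, and the naive comparison uses the 8 naive ones.

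Collagens are secreted or membrane-bound proteins whose chains wind into a stiff helix. Fibrillar collagens build the tough cables of connective tissue, FACIT collagens coat these cables, and type IV forms the sheet of the basement membrane on which Schwann cells, satellite glia and vessels rest. Type VI forms beaded filaments near basement membranes. In nerve, collagens are made chiefly by fibroblasts, perineurial cells, Schwann cells and vessel cells, and a crushed nerve is known to lay down collagen in the nerve itself. The ganglion lies at a distance from the crush.

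Gene counts per library ranged from 32758978 to 56484541, and collagen genes took 0.0426 to 0.0746% of them. Summed levels of 13 sensory neuron markers, with Nefl and Tubb3 the highest, ranged from 21740 to 28160 CPM, and those of 8 satellite glia markers, with Apoe and Glul the highest, from 2157 to 3536 CPM. CPM here stands for counts scaled to library sizes that were adjusted by TMM. Fibroblast markers summed to 211.0 to 354.2 CPM over 13 genes. Gsn and Dcn held most of this sum, with means of 142.6 and 110.9 CPM over all libraries. The next highest, Smoc2, had a mean of 7.56 CPM. Osr2, Clec3b, Dpt and Aldh1a2 were at 0 in some libraries. The within-group libraries differed from each other by more than sampling noise, with a chi-square per degree of freedom of at least 9.79, so all 16 counted as separate samples. In bulk RNA, fewer cells of a type and less RNA per cell cannot be told apart.

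The upstream sequences of 3 members are shown because the results below turn on them: Col5a3 and Col6a5 had the clearest responses to the crush, and Col4a1, with its neighbour Col4a2, carried much of the collagen RNA. Each is 250 bases before to 50 after the gene's start, from RefSeq on GRCm38.p6, written along the gene's own strand, 5′ to 3′. Capitals mark matches to the CCAAT box (CCAAT, or ATTGG when read on the other strand) and to the GC box (GGGCGG, or CCGCCC on the other strand). Col5a3 is at chr9:20815018-20815317, Col6a5 at chr9:105960594-105960893 and Col4a1 at chr8:11312777-11313076, all on the minus strand.
Col5a3: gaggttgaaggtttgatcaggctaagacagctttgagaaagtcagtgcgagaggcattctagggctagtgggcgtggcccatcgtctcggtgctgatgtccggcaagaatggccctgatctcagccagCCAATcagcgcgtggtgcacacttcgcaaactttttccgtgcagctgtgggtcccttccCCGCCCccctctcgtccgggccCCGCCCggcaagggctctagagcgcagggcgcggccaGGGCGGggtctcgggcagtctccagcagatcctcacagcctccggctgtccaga
Col6a5: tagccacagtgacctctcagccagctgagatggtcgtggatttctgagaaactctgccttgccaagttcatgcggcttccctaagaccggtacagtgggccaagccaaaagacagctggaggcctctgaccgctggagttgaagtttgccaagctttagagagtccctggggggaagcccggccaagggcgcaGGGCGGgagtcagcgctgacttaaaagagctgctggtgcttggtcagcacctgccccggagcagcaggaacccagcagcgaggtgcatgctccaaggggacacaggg
Col4a1: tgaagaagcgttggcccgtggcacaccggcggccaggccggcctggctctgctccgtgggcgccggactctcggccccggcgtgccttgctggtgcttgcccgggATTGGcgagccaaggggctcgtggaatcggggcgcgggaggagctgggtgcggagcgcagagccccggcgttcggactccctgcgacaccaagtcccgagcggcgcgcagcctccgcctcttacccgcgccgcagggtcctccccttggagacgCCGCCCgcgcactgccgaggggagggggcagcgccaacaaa

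The Col5a3 window held 1 CCAAT box and 3 GC boxes, the Col6a5 window 1 GC box, and the Col4a1 window 1 of each. RefSeq promoters matched 35 of the 44 collagen genes and gave 38 windows of that length. The GC box was found in 23 of the 38 windows (60.5%), against 35.7% of 32851 promoters of the same length, with both strands searched. The median GC content was 59.8% for the collagen windows and 52.7% for all promoters, a difference that moves with the GC box count. The CCAAT box was found in 13 collagen windows (34.2%, against 37.4% of all promoters) and the TATA box, searched as TATAAA, in 5 (13.2%, against 13.6%). The AP-1 motif TGANTCA and the cyclic AMP element TGACGTCA were each found in 1 collagen window (2.63%), against 7.81% and 1.79% of all promoters. A match is a run of letters and not evidence that a factor binds there.

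Several collagen genes are neighbours in the genome. Col4a1 and Col4a2 lie head to head on chromosome 8 and overlap by 22 bp, so that the Col4a1 window above shares 78 bp with that of Col4a2. Col4a3 and Col4a4 lie head to head on chromosome 1 with a gap of 71 bp, and Col4a5 and Col4a6 lie head to head on chromosome X with a gap of 1308 bp. Col6a6, Col6a5 and Col6a4 stand in a row on chromosome 9, with gaps of 27917 and 28810 bp. These 3 are related type VI genes, and how the counting treated reads with several hits is not given in the sources used here.

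Collagen genes differed widely in level in the naive ganglia. Levels here are CPM per kb of union exon length, given as the mean ± SD over the 8 naive libraries. They are levels after dissociation and the Percoll step and may differ from those of whole ganglia. How that preparation changed the share of each cell type was not tested. Col28a1, a collagen known from the surroundings of glia in peripheral nerve, was at 14.1 ± 3.49 and held 18.9% of the collagen sum. Col4a1 and Col4a2, the common chains of the basement membrane, were at 10.5 ± 1.60 and 5.50 ± 1.13. Col3a1, the fibrillar chain of soft connective tissue, was at 6.01 ± 2.40, and Col5a3, a type V chain made by Schwann cells in the rat, at 4.12 ± 0.772. These 5 genes held 54.0% of the collagen sum, and the ranges of neighbours in their order overlapped. Next came Col1a2 at 3.80 ± 0.886, Col6a1 at 3.14 ± 1.28, Col16a1 at 2.74 ± 0.864 and Col18a1 at 2.12 ± 0.769. The order depends on the length used. Per kb of the longest transcript, a length chosen after seeing the data, Col28a1 and Col4a1 stayed first and second at 16.3 and 11.9 CPM per kb. Col1a2, at 8.82, then came before Col4a2 and Col5a3, and the 5 highest genes, with Col1a2 in place of Col5a3, held 55.1%.

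**Figure D1:**
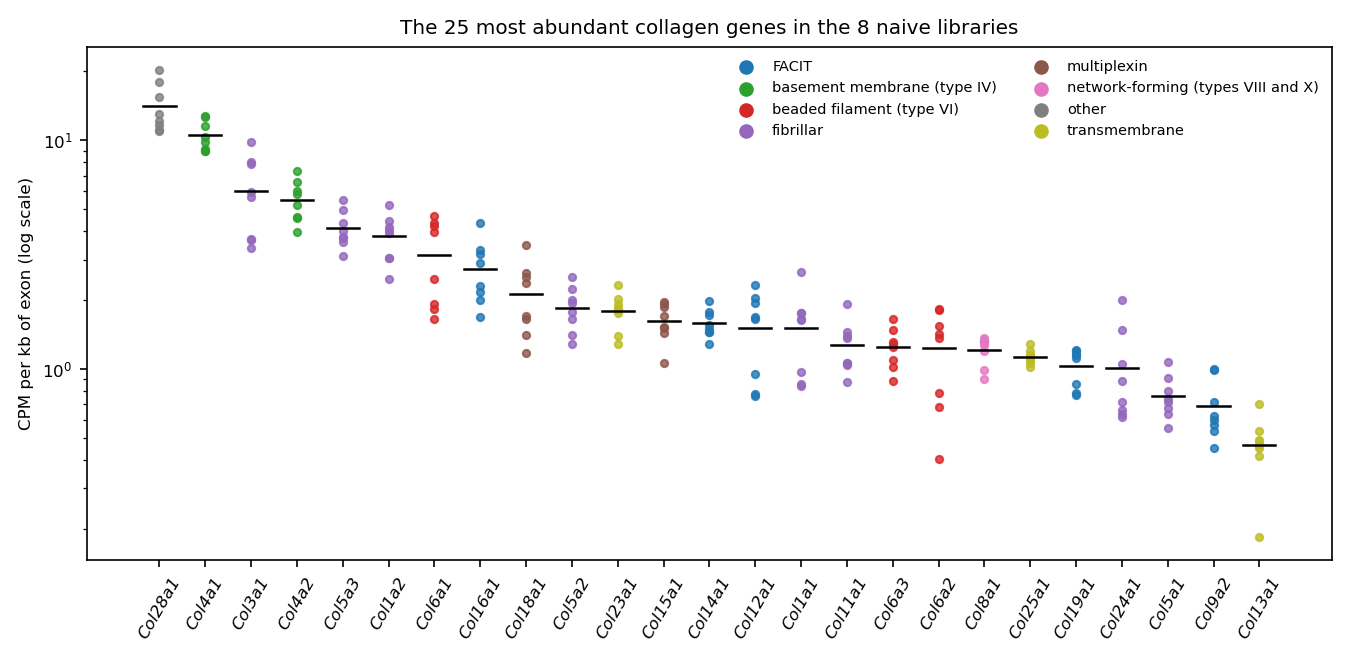
Levels of the 25 most abundant collagen genes in naive ganglia, in CPM per kb of union exon length on a log axis, with 1 point for each of the 8 naive libraries, a line at the mean and colours for the class. Col28a1 at 14.1 and Col4a1 at 10.5 CPM per kb stand at the top, and the points of Col3a1, Col6a1 and Col12a1 spread widely.

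The lower end of the order held tissue-restricted collagens. Col2a1, the main collagen of cartilage, was at 0.0357 ± 0.0206 CPM per kb, Col17a1, a component of epithelial hemidesmosomes, at 0.0321 ± 0.0227, and Col6a4 and Col6a6 at 0.0221 ± 0.0162 and 0.0166 ± 0.0188. For these genes and Col4a6 (0.0240 ± 0.0213) a response to injury of moderate size would not be detectable at this depth. The 2 called members with the largest folds upward were also low: Col6a5 at 0.0534 ± 0.0195 and Col7a1 at 0.0776 ± 0.0319 CPM per kb.

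Chains that assemble together kept some of their proportions. The ratio of Col4a1 to Col4a2, both per kb of union exon, stayed between 1.72 and 2.27 over all 16 libraries, with a median of 1.91. That of Col1a1 to Col1a2, the chains of type I collagen, ran from 0.239 to 0.512 with a median of 0.353, so that Col1a2 was the higher in each library. The ratio of Col6a1 to Col6a2 ran from 1.81 to 4.53 with a median of 2.36. The size of each ratio depends on the length used. Per kb of the longest transcript, again chosen after seeing the data, the medians were 2.10 for Col4a1 to Col4a2, 0.168 for Col1a1 to Col1a2 and 1.49 for Col6a1 to Col6a2. The higher chain of each of these pairs was the same in all 16 libraries with both lengths. That did not hold for Col4a3 and Col4a4, whose ratio per kb of union exon ran from 0.446 to 5.10 with a median of 1.18.

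At 24 h after the crush, 2 collagen genes were higher in the injured ganglia, the type VI chain Col6a5 and the FACIT gene Col16a1. No collagen gene passed the test in the lower direction, and the basement membrane, fibrillar and multiplexin genes gave no call at all. Col6a5 was 4.67-fold and Col16a1 1.99-fold the naive level. Of 42 tested, 2 higher is 4.76%, against 10.7% of all 19151 genes tested, and 0 lower stands against 8.31% (edgeR quasi-likelihood test, Benjamini-Hochberg adjusted p under 0.05). At an unadjusted p under 0.05, 6 collagen genes were higher and 2 lower, and the DESeq2 Wald test called 1 lower, Col14a1. The edgeR counts depended on pairing. In an alternative fit that blocked libraries by replicate number within a time, 6 were higher and 2 lower. All genes tested gave 2367 higher and 1968 lower in that fit, so the share higher was then not below that of all genes. The median log2 fold change over the 42 was −0.07, against −0.01 over all genes, with 15 positive and 27 negative.

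Col6a5 encodes an alternative chain of type VI collagen. Its naive libraries at 24 h read 0.486, 0.653, 0.145 and 0.472 CPM, and its injured libraries 1.58, 2.27, 2.34 and 2.16 CPM. All 4 injured libraries lay above all 4 naive ones, and the lowest injured value was more than 2 times the highest naive value. The log2 fold change was 2.22 (SE 0.33, edgeR adjusted p = 2.02e-05).

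Col16a1 encodes type XVI collagen, a FACIT chain that links fibrils with the surrounding matrix. Naive libraries at 24 h read 14.7, 15.6, 13.6 and 11.4 CPM and injured libraries 17.5, 29.6, 30.3 and 32.4 CPM. The groups did not overlap, but injured replicate 1 stood close to the naive libraries. The log2 fold change was 0.99 (SE 0.15, edgeR adjusted p = 4.26e-05), and the call held with each library left out in turn.

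Col11a1, a minor fibrillar chain best known from cartilage, also had no overlap at 24 h, with naive libraries at 13.5, 13.5, 11.1 and 13.3 CPM and injured libraries at 14.5, 16.7, 13.6 and 18.4 CPM. Its log2 fold change of 0.30 (SE 0.13) did not pass the test (edgeR adjusted p = 0.116). By non-overlap alone, 3 members were higher and 0 lower, against 10% and 8.48% of all genes tested. The 3 were Col6a5, Col16a1 and Col11a1.

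At 72 h, 4 collagen genes were higher and 3 lower in the injured ganglia. The higher ones were the type V chains Col5a3 and Col5a2, Col6a5 and the anchoring fibril gene Col7a1. The lower ones were the transmembrane gene Col25a1, the type IV chain Col4a3 and Col11a1. Col6a5 was the only collagen gene called at both times by edgeR. As shares of the 42 tested, 9.52% were higher and 7.14% lower, against 14.4% and 13.5% of all genes tested. The median log2 fold change was −0.03, against −0.01 over all genes, with 18 positive and 24 negative.

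Col5a3 read 33.7, 29.6, 37.2 and 27.2 CPM in the naive libraries at 72 h and 86.2, 89.1, 64.3 and 48.9 CPM in the injured ones. The groups did not overlap, with the injured values spread more widely than the naive ones. The level was 2.26-fold the naive level, or 1.18 on the log2 scale (SE 0.14, edgeR adjusted p = 4.02e-07). At 24 h the same gene read 21.2 to 25.6 CPM in naive and 23.4 to 26.8 CPM in injured ganglia, overlapping ranges, and the log2 fold change was 0.08 (SE 0.14; adjusted p = 0.766).

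Col5a2, which pairs with Col5a1 in the common form of type V collagen, read 19.2, 15.8, 24.3 and 17.0 CPM in naive and 23.8, 26.0, 28.5 and 23.1 CPM in injured ganglia at 72 h. Naive replicate 3 lay inside the injured range, so the groups overlapped. The log2 fold change was 0.41 (SE 0.15, edgeR adjusted p = 0.0402). The call was lost with upper quartile scaling (adjusted p = 0.0525), without injured replicate 2 or 3 and without naive replicate 1, 2 or 4, with edgeR adjusted p from 0.0731 to 0.144. Col5a1 stood at −0.01 (SE 0.21, adjusted p = 0.976). The ratio of Col5a3 to Col5a2 per kb of union exon was 2.16 to 2.63 in naive and 2.98 to 5.11 in injured ganglia at 72 h, so the type V chains did not move in proportion.

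Col6a5 at 72 h read 0.396, 0.555, 0.763 and 0.552 CPM in naive and 4.00, 3.63, 2.94 and 3.54 CPM in injured ganglia. The gap between the groups was again wide, with a fold of 6.22 and a log2 fold change of 2.64 (SE 0.32, edgeR adjusted p = 8.60e-07). The 72 h response exceeded the 24 h response by 0.41 (SE 0.45), which did not pass the test (adjusted p = 0.718).

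Col7a1 encodes the collagen of the anchoring fibrils that tie epithelial basement membrane to the tissue below. It read 0.606, 0.555, 1.15 and 1.34 CPM in naive and 3.09, 2.56, 2.66 and 2.69 CPM in injured ganglia at 72 h, with no overlap. The fold was 3.01, or 1.59 on the log2 scale (SE 0.38, edgeR adjusted p = 0.00268). At 24 h it read 0.425 to 1.02 CPM in naive and 0.185 to 0.946 CPM in injured ganglia, and its log2 fold change was −0.07 (SE 0.40; adjusted p = 0.938).

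Col25a1 encodes a membrane collagen that neurons make and that motor axons need to innervate muscle in the mouse. It read 16.6, 14.2, 14.9 and 15.4 CPM in naive and 10.2, 13.0, 9.85 and 10.9 CPM in injured ganglia at 72 h. All injured libraries lay below all naive ones, and the log2 fold change was −0.48 (SE 0.11, edgeR adjusted p = 0.00154). At 24 h the log2 fold change was −0.22 (SE 0.11, adjusted p = 0.183).

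Col4a3 encodes a type IV chain of specialised basement membranes such as the kidney filter. It read 3.01, 2.43, 1.93 and 2.48 CPM in naive and 1.14, 1.21, 1.13 and 1.07 CPM in injured ganglia at 72 h. The groups did not overlap, and the log2 fold change was −1.11 (SE 0.32, edgeR adjusted p = 0.00993). At 24 h the naive libraries read 1.63, 0.742, 0.819 and 1.39 CPM, so the injured level at 72 h lay within the naive range at 24 h. Its head-to-head partner Col4a4 had log2 fold changes of 0.02 at both times (SE 0.37 at each), and the ratio of Col4a3 to Col4a4 per kb of union exon was 2.38 to 5.10 in naive and 1.01 to 2.34 in injured ganglia at 72 h. An antisense gene shares 5.65% of the Col4a3 exon length, and the strand setting of the counting is not given in the sources used here.

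Col11a1 at 72 h read 17.5, 17.8, 24.5 and 18.4 CPM in naive and 16.3, 13.9, 17.0 and 11.8 CPM in injured ganglia. The groups came close without overlapping, and naive replicate 3 stood above the rest of its group. The log2 fold change was −0.41 (SE 0.13, edgeR adjusted p = 0.0193). Without naive replicate 3 the log2 fold change was −0.28 and the adjusted p 0.116, and the call was also lost without injured replicate 2 (0.0587) or 4 (0.0856).

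By non-overlap at 72 h, 3 members were higher and 4 lower, against 16.3% and 15% of all genes tested. The lower set held Col25a1, Col4a3, Col11a1 and the FACIT gene Col20a1. Col20a1 had a log2 fold change of −1.95 (SE 0.81) that did not pass edgeR's test (adjusted p = 0.0776), while the DESeq2 Wald test called it lower.

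**Figure D2:**
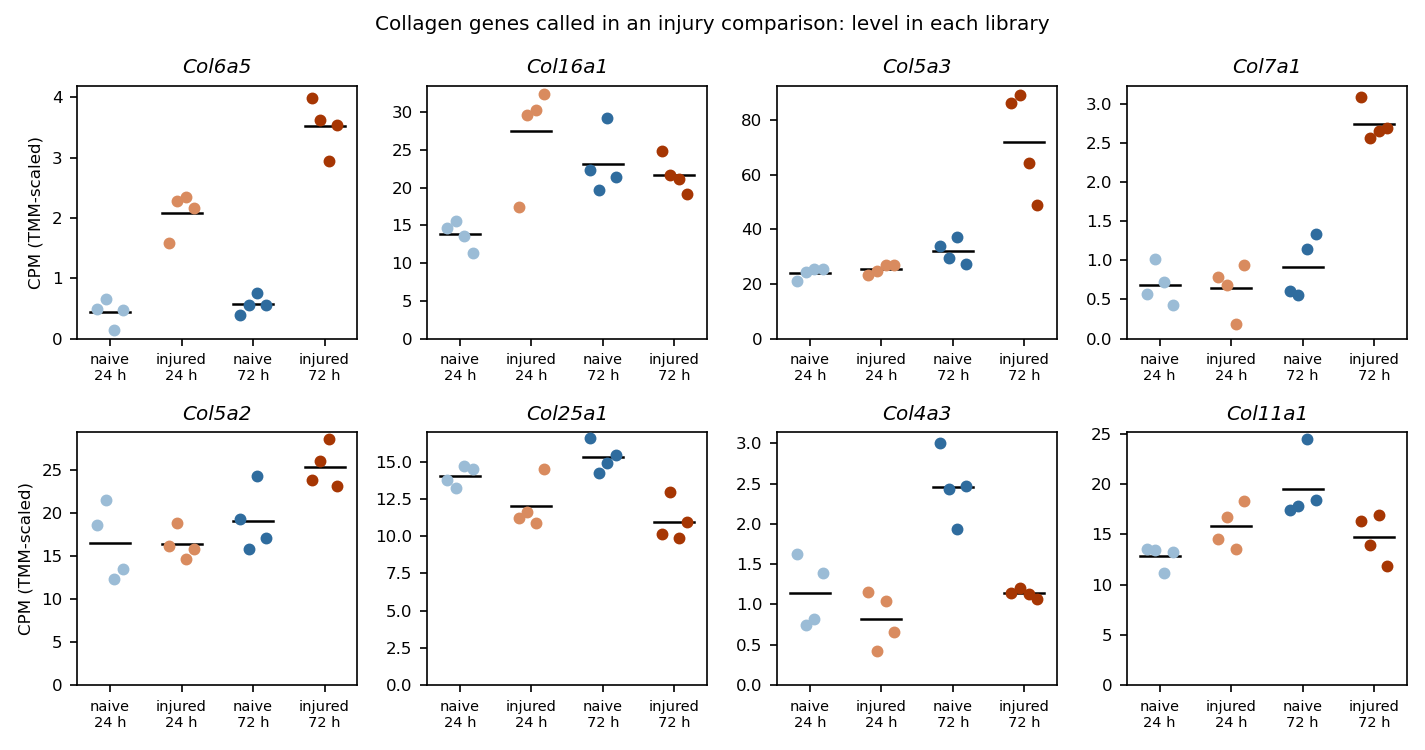
Levels of the 8 collagen genes called in an injury comparison, in CPM on axes that start at 0, with 1 point for each library and a line at the group mean, in naive and injured ganglia at 24 h and 72 h. Col6a5 lies above its naive libraries at both times, Col16a1 at 24 h, and Col5a3 and Col7a1 at 72 h.

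**Figure D3:**
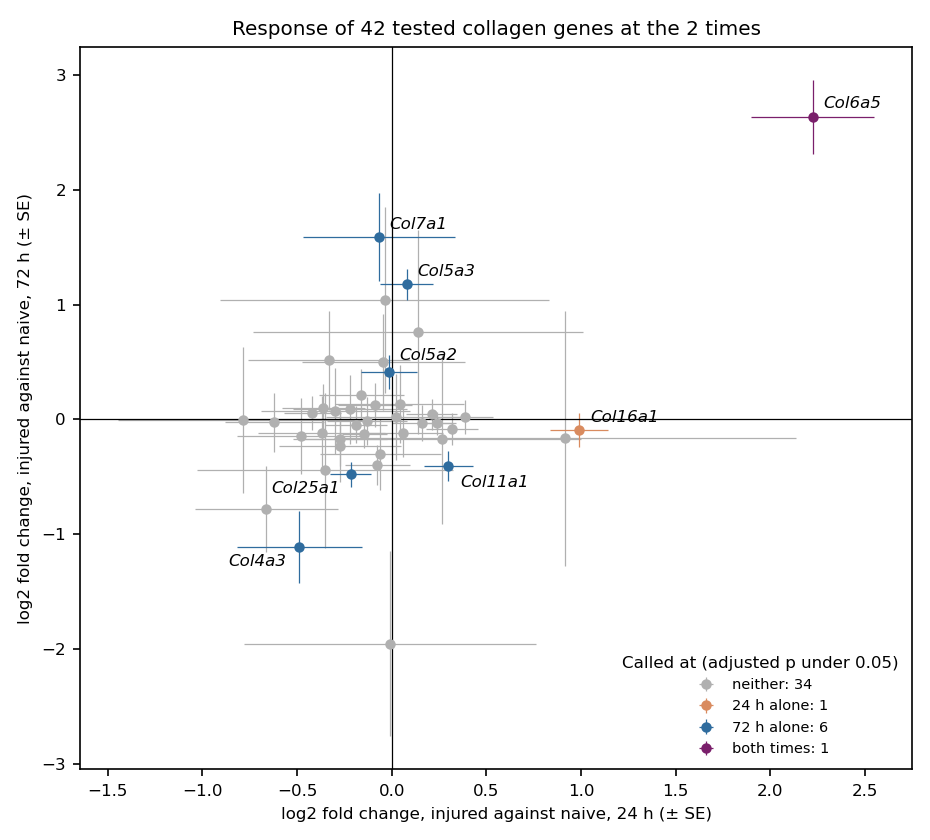
Log2 fold change of injured against naive ganglia at 72 h (vertical axis) against that at 24 h (horizontal axis) for the 42 tested collagen genes, with bars of 1 SE and colours for the time at which edgeR called the gene. Col6a5, at 2.22 and 2.64, stands alone at the upper right, and 34 genes were called at neither time.

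Only Col7a1, Col6a5, Col5a3 and Col5a2 were called higher at 72 h by edgeR, and the major connective tissue chains were not among them. In the fibrillar class, Col1a1, Col1a2, Col2a1, Col3a1, Col5a1, Col11a2, Col24a1 and Col27a1 passed the test at neither time. Their log2 fold changes ran from −0.37 (Col1a1) to 0.27 (Col2a1) at 24 h and from −0.17 (Col2a1) to 0.21 (Col27a1) at 72 h. Col3a1 read 58.2, 77.5, 33.3 and 35.9 CPM in naive and 34.0, 68.0, 32.6 and 41.3 CPM in injured ganglia at 24 h. At 72 h it read 55.2, 36.1, 96.7 and 78.7 CPM in naive and 49.6, 46.4, 110.8 and 76.6 CPM in injured ganglia. The groups overlapped at both times, with log2 fold changes of −0.22 (SE 0.30) and 0.09 (SE 0.30). Those SEs leave room for changes of moderate size in either direction.

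Summed over the fibrillar class, the level per kb was 23.7 ± 5.94 in naive and 30.6 ± 4.45 in injured ganglia at 72 h (SD, n = 4). At 24 h it was 18.1 ± 3.65 in naive and 17.0 ± 3.06 in injured ganglia. The ranges at 72 h overlapped: naive libraries lay between 17.3 and 31.5 and injured libraries between 27.3 and 37.2. Most of the difference between the 72 h means came from Col5a3, whose mean went from 4.69 in naive to 10.6 in injured ganglia. Col3a1 went from 6.79 to 7.22 and Col1a2 from 4.12 to 4.49. Of the 11 genes, 7 had a positive and 4 a negative log2 fold change at 72 h.

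Among basement membrane genes, Col4a1 read 94.2, 67.2, 67.2 and 68.2 CPM in naive and 101.1, 83.5, 87.4 and 78.1 CPM in injured ganglia at 24 h. Naive replicate 1 lay inside the injured range, and the other naive libraries lay below it. The log2 fold change was 0.24 (SE 0.10) for Col4a1 and 0.32 (SE 0.14) for Col4a2, and neither passed the test (edgeR adjusted p = 0.111 and 0.112). Without naive replicate 1 both were called higher at 24 h. At 72 h Col4a1 read 95.7, 86.0, 77.0 and 73.1 CPM in naive and 84.1, 81.4, 85.2 and 73.3 CPM in injured ganglia, with a log2 fold change of −0.03 (SE 0.10). Col4a5, an X-linked chain, had log2 fold changes of −0.62 (SE 0.26, adjusted p = 0.106) and −0.02 (SE 0.26).

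In the type VI class, Col6a5 was the only gene called. Col6a1 read 19.1, 17.4, 8.04 and 8.45 CPM in naive and 9.67, 14.8, 7.58 and 5.99 CPM in injured ganglia at 24 h. At 72 h it read 10.8, 7.25, 20.5 and 18.5 CPM in naive and 10.1, 7.61, 20.6 and 13.3 CPM in injured ganglia. The groups overlapped throughout, and so did those of Col6a2 and Col6a3, the other common chains. Log2 fold changes of Col6a1, Col6a2 and Col6a3 lay between −0.48 and 0.06 at 24 h and between −0.23 and −0.11 at 72 h. Col6a4 stood at −0.04 (SE 0.87) and 1.04 (SE 0.81), and Col6a6 at 0.91 (SE 1.22) and −0.16 (SE 1.11).

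In the FACIT class, Col16a1 was called at 24 h and no gene at 72 h by edgeR. Col14a1, which binds the fibril surface, had a log2 fold change of −0.42 at 24 h (SE 0.15, edgeR adjusted p = 0.0534) and of 0.06 at 72 h. Col12a1, a related fibril-surface chain, stood at 0.04 and 0.13, Col9a2 at −0.27 and −0.17, Col9a3 at −0.79 and −0.00, and Col22a1, known from the junction of muscle and tendon, at −0.33 and 0.51. Col19a1, which in the mouse brain has been tied to synapse formation, stood at −0.08 and −0.40, the latter with an adjusted p of 0.0962. For Col9a3, 6.07% of the exon length is shared with Tcfl5 on the opposite strand.

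The transmembrane, network-forming and remaining genes gave 1 call, that of Col25a1. Col23a1, the highest of the transmembrane class in naive ganglia per kb of union exon but not per kb of longest transcript, where Col25a1 was higher, read 7.36, 10.6, 7.95 and 13.4 CPM in naive and 10.6, 9.57, 13.7 and 10.3 CPM in injured ganglia at 24 h, and over both groups 8.48 to 11.8 CPM at 72 h. Col13a1, known from the neuromuscular junction, had log2 fold changes of −0.06 and −0.30, and Col17a1 of 0.14 (SE 0.87) and 0.76 (SE 0.89). Col8a1, a vessel-wall collagen, read 9.92, 10.3, 7.71 and 10.7 CPM in naive and 10.1, 12.8, 11.6 and 10.3 CPM in injured ganglia at 24 h, and 7.06 to 10.5 and 8.82 to 11.1 CPM at 72 h. Col8a2 and Col10a1, the latter known from growing cartilage, had log2 fold changes between −0.78 and −0.35 over both times, none past the test.

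Col28a1, the highest collagen gene per kb in naive ganglia, read 54.0, 59.2, 57.2 and 63.7 CPM in naive and 46.5, 56.5, 54.4 and 54.4 CPM in injured ganglia at 24 h. At 72 h it read 99.1, 88.6, 76.0 and 54.1 CPM in naive and 75.0, 80.5, 67.5 and 67.4 CPM in injured ganglia. The groups overlapped at both times, with log2 fold changes of −0.14 (SE 0.12) and −0.13 (SE 0.12). Col26a1 stood at −0.04 and 0.50 with SEs of 0.43 and 0.42. The multiplexins Col15a1 and Col18a1, whose ends release fragments that act on vessels, stood at −0.19 and −0.05 and at 0.38 and 0.02. The value of Col18a1 at 24 h had an adjusted p of 0.0825.

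The responses at 72 h and 24 h differed for 3 collagen genes. Col5a3 responded more at 72 h, by 1.10 on the log2 scale (SE 0.19, edgeR adjusted p = 0.000888). The difference of Col16a1 was −1.08 (SE 0.22, edgeR adjusted p = 0.00272), with a smaller log2 fold change at 72 h. That of Col11a1 was −0.70 (SE 0.18, edgeR adjusted p = 0.0202), from 0.30 at 24 h, which did not pass the test, to −0.41 at 72 h, which did. Group means of Col11a1 were 12.8 CPM in naive and 15.8 CPM in injured ganglia at 24 h. At 72 h they were 19.5 and 14.7 CPM, so the naive means differed more between times than the injured means. The 3 differences are 1 higher and 2 lower of 42, against 2.86% and 3.44% of all genes tested. For Col7a1 the difference was 1.66 (SE 0.55), which did not pass edgeR's test (adjusted p = 0.0827). Without naive 72 h replicate 3 the Col11a1 difference was −0.58 and its adjusted p 0.0563.

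The naive ganglia of both times were not alike in collagen RNA. Col18a1, Col24a1, Col16a1 and Col11a1 were higher at 72 h than at 24 h, with log2 differences of 0.89 (SE 0.15), 1.04 (SE 0.21), 0.74 (SE 0.15) and 0.60 (SE 0.13). Their edgeR adjusted p were 0.00257, 0.0112, 0.0118 and 0.0143. Of 42 tested, 4 were higher and 0 lower, against 1.61% and 0.731% of all genes tested, and at an unadjusted p under 0.05 the counts were 9 and 0. The log2 difference was positive for 33 of 42 members, with a median of 0.23 against 0.00 over all genes.

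Col18a1 shows this difference in all libraries, with 11.6, 8.27, 9.87 and 12.0 CPM in naive ganglia at 24 h and 24.5, 17.6, 16.6 and 18.5 CPM at 72 h. Its injured libraries read 10.4, 13.2, 17.0 and 13.8 CPM at 24 h and 23.9, 16.8, 19.8 and 18.1 CPM at 72 h, so it differed by time and gave no injury call. Col16a1 read 22.3, 19.6, 29.3 and 21.4 CPM in naive ganglia at 72 h and 24.9, 21.7, 21.2 and 19.1 CPM in injured ones. Both groups at 72 h lay above the naive range of 11.4 to 15.6 CPM at 24 h, with a log2 fold change of −0.09 (SE 0.15) between them. The times also differ as sets of mice, and time and set cannot be told apart.

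The naive difference was sensitive to a single library. Without naive 72 h replicate 3, Col18a1 was the only call, and the adjusted p of Col24a1, Col16a1 and Col11a1 rose to between 0.0559 and 0.0679. That library was the highest of its group for 23 of 43 members (53.5%), against 22.4% of all genes tested. Marker genes moved with this comparison: 4 of 9 endothelial markers (Cdh5, Tie1, Flt1 and Cldn5) and 3 of 9 mural cell markers (Myh11, Acta2 and Tagln) were higher in naive ganglia at 72 h. Tagln was lost without naive 24 h replicate 3 or 4 or any naive 72 h replicate. Cldn5 was lost without naive 24 h replicate 2 or naive 72 h replicate 1. Summed endothelial markers ranged from 172.0 to 243.3 CPM at 24 h and from 259.6 to 321.6 CPM at 72 h, and summed mural markers from 215.9 to 240.7 and from 277.5 to 311.5 CPM, with no marker of either list at 0 in all libraries. Of 9 neutrophil markers, 1 was higher by edgeR (Ltf) and 8 at an unadjusted p under 0.05, with a median log2 difference of 1.385. The Ltf call was lost without naive 24 h replicate 1, 3 or 4 or naive 72 h replicate 3 or 4. The medians were 0.473 for endothelial and 0.513 for mural markers. None of 6 erythroid markers was called, but 4 were higher at an unadjusted p under 0.05 (median 0.966). Of 9 perineurial markers, 1 was called higher. The share called higher over all genes tested was 1.61% in this comparison. The part of these cells in the collagen difference was not tested.

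**Figure D4:**
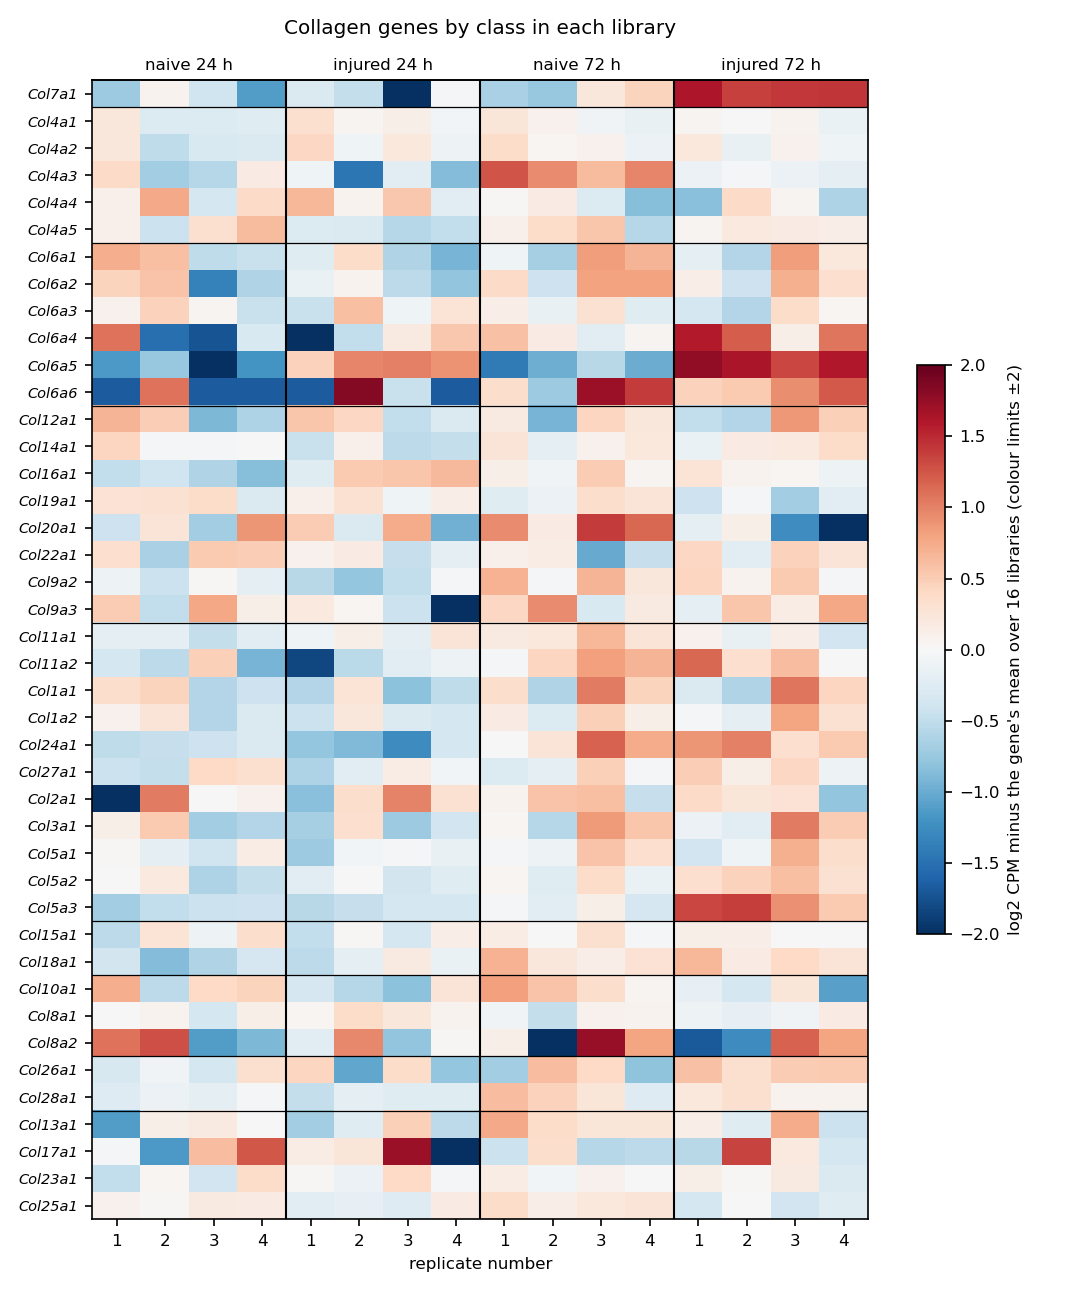
Log2 CPM of the 42 tested collagen genes in the 16 libraries, as the difference from that gene's mean over all libraries, with colour limits at 2 in both directions and lines between classes. The genes of types I and III and Col6a1 are high in naive replicates 1 and 2 at 24 h and in the libraries numbered 3 of both groups at 72 h.

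Several connective tissue collagens varied more between libraries of a group than between groups. At 72 h, Col1a1 ran from 5.52 to 17.5 CPM in the naive group and 5.54 to 17.8 CPM in the injured group, a span of 3.16 and 3.22 times. Col12a1 spanned 3.01 times among naive libraries at 24 h, Col6a2 3.81 times, Col6a1 2.37 times and Col3a1 2.33 times. Naive replicates 1 and 2 were the higher ones at 24 h for Col1a1, Col3a1 and Col6a1, and replicates 3 and 4 of both naive and injured ganglia were the higher ones at 72 h. Injured 72 h replicate 3 was the highest of its group for 17 of 43 members (39.5%, against 24% of all genes tested), and injured 24 h replicate 2 for 15 (34.9%, against 19.6%).

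Fibroblast markers showed no call in either injury comparison by edgeR, with 11 of 13 tested. At an unadjusted p under 0.05, 1 was higher at 24 h and 2 at 72 h, and the DESeq2 Wald test called 0 at 24 h and 2 at 72 h. Their summed level was 221.6 to 330.8 CPM in naive and 271.3 to 351.3 CPM in injured ganglia at 72 h. Macrophage markers moved with the 72 h comparison: 7 of 10 were higher, with summed levels of 14.6 to 28.1 CPM in naive and 53.9 to 69.5 CPM in injured ganglia, Mrc1 and C1qa being the highest. At 24 h none of the 10 was called by edgeR or at an unadjusted p under 0.05, nor by the DESeq2 Wald test. Of 9 neutrophil markers, 7 were lower at 72 h, with 108.5 to 419.7 CPM in naive and 41.4 to 152.3 CPM in injured ganglia, and the count fell to 0 without naive replicate 4, 1 without injured replicate 2, 2 without injured replicate 1 and 3 without naive replicate 3. Of 9 perineurial markers, 1 was higher at each time (Slc2a1), and 1 was lower at 72 h (Sfrp5). The shares over all genes tested were 10.7% higher and 8.31% lower at 24 h, and 14.4% higher and 13.5% lower at 72 h. No marker list had a gene at 0 in all libraries, and the part of these cells in the collagen changes was not tested.

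Of 13 sensory neuron markers, 5 were lower at 24 h (Isl1, Pou4f1, Elavl4, Avil and Rbfox3), against 8.31% of all genes tested. At 72 h, 7 were lower, against 13.5%, and Tubb3 was higher (edgeR adjusted p under 0.05). Without naive replicate 2 the count at 24 h was 3, with Avil and Rbfox3 no longer called. Avil was also lost without injured or naive replicate 1, and Rbfox3 without injured replicate 1 or 4 or naive replicate 1 or 3. At 72 h Nefh was lost without injured replicate 1 or 2 or any naive replicate, and Nefm without injured replicate 1, 2 or 4 or naive replicate 1 or 3. Of 8 satellite glia markers, 1 was higher and 1 lower at 24 h and 2 were higher at 72 h, and of 9 markers of myelinating Schwann cells 2 were lower at 24 h and 1 was higher at 72 h. Endothelial markers gave 1 higher at 24 h and 1 lower at 72 h, and mural markers 1 lower at 24 h and 2 lower at 72 h. Of all genes tested, 10.7% were higher and 8.31% lower at 24 h, and 14.4% higher and 13.5% lower at 72 h. A single call in a list of 8 or 9 genes is near these shares. Several of these calls rested on single libraries. At 24 h, Mbp and Drp2 of the Schwann cell list were lost without injured replicate 2 or 4 or naive replicate 4, Drp2 also without naive replicate 1, endothelial Esam without injured replicate 1, and glial Ednrb without naive replicate 4. Mural Tagln was lost at 24 h without injured replicate 1 or 4 or naive replicate 1, 2 or 3. At 72 h, Pmp22 was lost without injured replicate 4 or naive replicate 3 or 4, Flt1 without injured replicate 4 or naive replicate 1 or 2, Rgs5 without injured replicate 2 or 3 or naive replicate 3 or 4, and Ednrb without injured replicate 2 or naive replicate 4. None of 6 erythroid markers was called by edgeR, with 0 at an unadjusted p under 0.05 at 24 h and 4 lower at 72 h.

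Genes that build, cut, bind and remove collagen gave calls at both times. Among 23 enzymes and chaperones that fold and modify collagen chains, 4 were higher and 1 lower at 24 h, and 6 were higher and 1 lower at 72 h. Plod3, a lysyl hydroxylase, was at 43.8 CPM in naive and 74.7 CPM in injured ganglia at 24 h, with log2 fold changes of 0.77 (SE 0.07) at 24 h and 0.72 (SE 0.07) at 72 h and edgeR adjusted p of 3.02e-08 and 4.74e-08. Mia3, which loads procollagen into transport carriers, rose by 0.42 and 0.51 on the log2 scale. P4ha3, a prolyl hydroxylase subunit, rose by 0.78 at 24 h, and P4hb, the shared subunit, by 0.27 at 72 h. Colgalt2, which adds galactose to collagen, had log2 fold changes of −0.31 and −0.28, both past the test. Among the higher calls at 72 h, P4ha2 was lost without injured replicate 4 or naive replicate 1 or 2. P4ha3 was lost at 72 h without injured replicate 2 or 3 or naive replicate 2, and with no filter on low counts. Their edgeR adjusted p were then 0.0506 to 0.0760. Of all genes tested, 10.7% were higher and 8.31% lower at 24 h, and 14.4% and 13.5% at 72 h. The median over the list was 0.02 at 24 h and 0.06 at 72 h.

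Of 13 genes for propeptide cleavage and crosslinking, 2 were higher and 1 lower at each time. Loxl2, which crosslinks collagen by oxidising lysines, went from 1.09 to 2.25 CPM at 24 h and from 1.31 to 13.0 CPM at 72 h, as group means of naive and injured ganglia. The log2 fold changes were 1.05 (SE 0.24, edgeR adjusted p = 0.00323) and 3.31 (SE 0.24, adjusted p = 2.12e-10), and the difference of 2.27 (SE 0.34) passed the test (adjusted p = 0.000156). Bmp1, which cuts the C-terminal propeptide off fibrillar procollagens, rose by 0.96 and 1.29. Its relative Tll1 had a log2 fold change of −0.97 at 72 h (adjusted p = 0.000221). Adamts2, which cuts the N-terminal propeptide, had −0.58 at 24 h (adjusted p = 0.0317), a call lost without naive replicate 2 or 4 or injured replicate 1, 3 or 4, with adjusted p of 0.0555 to 0.174. The list median was −0.01 and 0.01.

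Of 17 genes for collagen breakdown and its inhibitors, 15 were tested, with 4 higher and 0 lower at 24 h and 3 higher and 3 lower at 72 h. Mmp16, a membrane-bound metalloprotease, went from 19.5 to 74.7 CPM at 24 h and from 21.9 to 166.2 CPM at 72 h, with log2 fold changes of 1.94 (SE 0.11) and 2.92 (SE 0.12). Timp1, a secreted inhibitor of these proteases, went from 0.751 to 24.5 CPM and from 0.564 to 7.09 CPM, with log2 fold changes of 5.01 (SE 0.39) and 3.62 (SE 0.39). Reck and Mmp14, a membrane inhibitor and a membrane collagenase, rose at 24 h by 0.73 and 0.42. Timp2 and Mmp15 were lower at 72 h, by log2 fold changes of −0.36 and −0.56. Mmp9 was also called lower at 72 h, with 2.75 to 12.6 CPM in naive and 1.74 to 3.66 CPM in injured ganglia. The Mmp9 call was lost without injured replicate 2 or naive replicate 3 or 4, with edgeR adjusted p of 0.0515 to 0.127. By the test of the difference, the log2 fold changes of Mmp16 and Timp3 were higher at 72 h than at 24 h. That of Timp2 went from 0.07 at 24 h to −0.36 at 72 h, a difference of −0.42 (edgeR adjusted p = 0.000567). The differences of Mmp14 and Mmp15 were also negative, at −0.56 and −0.37 (edgeR adjusted p = 0.0387 and 0.0485), with values of −0.14 for Mmp14 at 72 h and −0.19 for Mmp15 at 24 h that did not pass the test. Each of these calls was lost when any of several single libraries was left out, with adjusted p of up to 0.0978 and 0.125. The list median was 0.10 at 24 h, where 2 were lower at an unadjusted p under 0.05, and −0.14 at 72 h.

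Of 11 collagen receptors, 10 were tested, with 4 higher and 1 lower at 24 h and 3 higher and 1 lower at 72 h. Itgb1, the integrin subunit shared by the collagen-binding integrins, rose by 0.60 (SE 0.05) and 1.01 (SE 0.05) on the log2 scale, and the difference of 0.41 passed the test (edgeR adjusted p = 0.000773). Ddr2, a receptor kinase for fibrillar collagen, rose by 0.47 and 0.90, the former lost without injured replicate 4 (adjusted p = 0.0548). Itga2 rose by 0.82 at 24 h, a call lost without naive replicate 3 (adjusted p = 0.0510). Adgrg1, a receptor for type III collagen, rose by 0.24 at 24 h, a call lost without injured replicate 2 or 3 or naive replicate 1 or 2. Itga11 had log2 fold changes of −0.60 and −0.65, of which the former was lost without injured replicate 2 or 3 or naive replicate 1. Lair1, an inhibitory receptor of immune cells, rose by 0.78 at 72 h, a call lost without injured replicate 2 (adjusted p = 0.0597). The list median was 0.18 and 0.12.

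Of 20 small leucine-rich proteoglycans and other fibril partners, 1 was higher and 1 lower at each time. Comp, a cartilage matrix protein that binds collagen fibrils, had log2 fold changes of −0.72 and −1.50, the former lost without naive replicate 2 (edgeR adjusted p = 0.0529). Tnxb, a tenascin of collagen-rich tissue, rose by 0.55 at 24 h, a call lost without injured replicate 2 (adjusted p = 0.0841) or naive replicate 2 (0.0524). Thbs2 rose by 0.54 at 72 h, a call lost without injured replicate 3 or naive replicate 1, 2 or 4, with adjusted p of 0.0551 to 0.182. The list median was 0.01 and −0.00. The background shares for these lists are those given above, 10.7% higher and 8.31% lower at 24 h and 14.4% and 13.5% at 72 h.

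**Figure D5:**
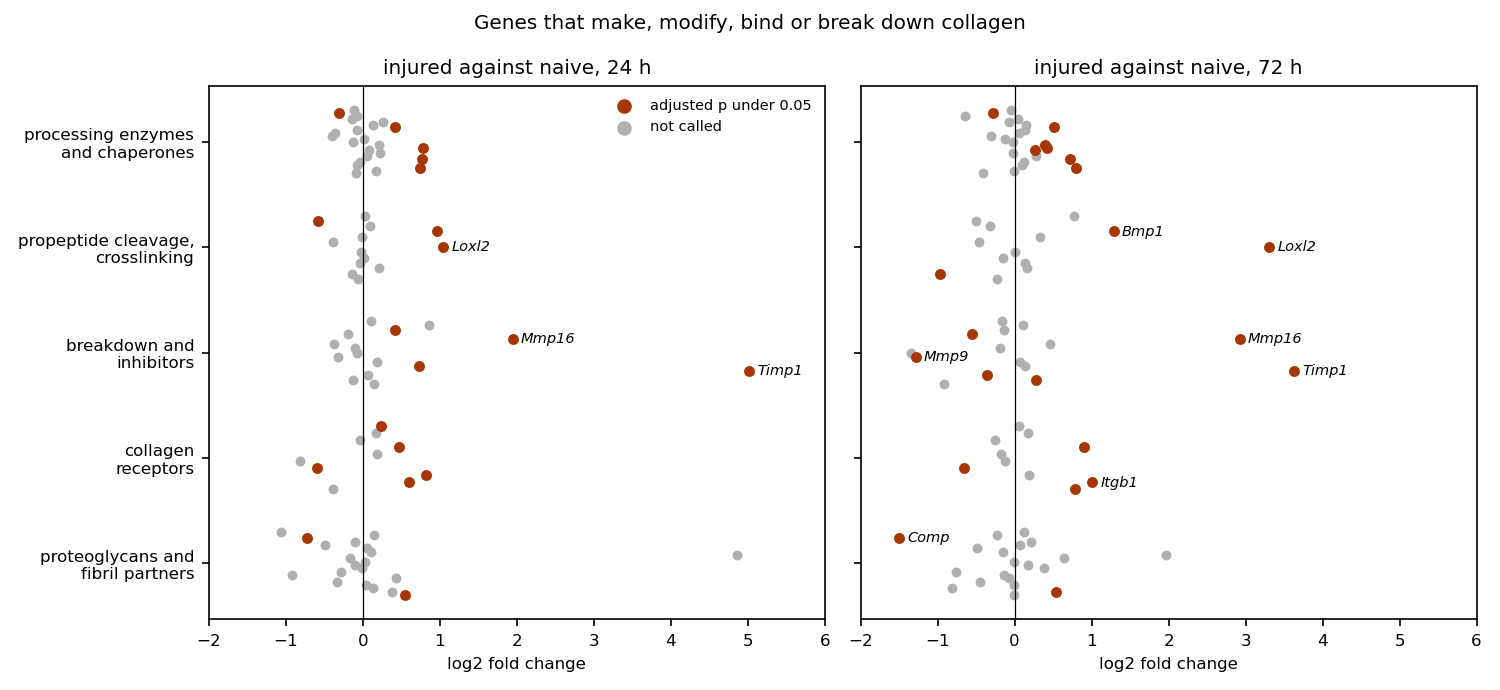
Log2 fold change of injured against naive ganglia at 24 h and 72 h for genes that process, crosslink, break down, bind or accompany collagen, with 1 point per gene and dark points for those with an edgeR adjusted p under 0.05. Timp1 at 5.01 and 3.62, Loxl2 at 1.05 and 3.31 and Mmp16 at 1.94 and 2.92 stand furthest to the right among the called genes.

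A deposited table of short genomic windows gave a further view of some collagen loci from the same libraries, which are not further replicates. It held 308 windows inside collagen genes, of which 98 carried no repeat family and 9776 counts in all, and 210 carried a family and 591 counts. Col16a1 had a single no-family window, with 176 counts over all libraries. It held 0 to 8 counts per library in naive and 9 to 18 in injured ganglia at 24 h, with no overlap. At 72 h it held 5 to 17 and 12 to 19. The no-family windows of Col3a1 held 33 to 184 counts in naive and 59 to 150 in injured ganglia at 24 h, with wide overlap. These counts are not scaled for depth. As scaled group means at 72 h, windows of Col11a1 were at 1.31 CPM in naive and 0.663 CPM in injured ganglia. Those of Col25a1 were at 0.380 and 0.474 CPM, the opposite direction to the lower call of the gene. The ranges of both overlapped. The no-family windows of Col5a3, Col5a2 and Col6a5 held 0 counts, so they give no view of these called genes. How the windows were chosen is not given in the sources used here.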

How the data were processed

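The authors deposited raw counts of reads per gene and per short genomic window, with no scaling. Tools named in the submitters' processing notes are STAR, HTSeq and bcl2fastq 2.17, with builds GRCm38 and mm10; strand setting, annotation release and the treatment of reads with several hits are not given in the sources used here. Columns without a time in their names were assigned to 72 h by elimination. Of 48795 gene identifiers, 48349 matched a symbol. Differences came from edgeR 4.0.16 (R 4.3.3), in a single quasi-likelihood fit over the 16 libraries with a term for group and no other covariate, after TMM scaling and filterByExpr (10 as minimum count, 15 as minimum total); p-values were adjusted by Benjamini-Hochberg over 19151 genes, with calls at 0.05. SE is the log2 fold change divided by the root of F. Levels per kb used union exon lengths of a GRCm38 annotation, and log2 CPM a prior count of 2. The procedure was tested on simulated data. DESeq2 1.42.0, other scalings, filters, a replicate block and left-out libraries were alternatives. Replicates are libraries the labels number 1 to 4 in a group. Named genes were members called in an injury comparison, the most abundant member of each class, and up to 4 called members of each pathway list by smallest p. The members, the collagen pathway lists and the marker lists were chosen with earlier results of these data known.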

Additional observations from a re-analysis of the deposited data

Results flagged for a closer look

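On log2 CPM, 13 of 172 groups of 4 libraries had a highest or lowest library set apart from the rest by a gap past Dixon's 95% critical value for 4 libraries, where chance gives about 1 in 20, or 8.6. Values below give the gap as a share of the range. In naive ganglia at 24 h, replicate 1 stood above the others for Col4a1 (0.956) and Col14a1 (0.903) and below them for Col13a1 (0.875). Replicate 2 of that group stood above for Col6a6 (1), where the other libraries of the group were tied at 0 counts. It stood below for Col22a1 (0.848), replicate 3 below for Col11a1 (0.904) and replicate 4 below for Col19a1 (0.891). In injured ganglia at 24 h, replicate 1 stood below for Col16a1 (0.855) and Col5a1 (0.846), and replicate 2 above for Col14a1 (0.874). In naive ganglia at 72 h, replicate 3 stood above for Col11a1 (0.844) and replicate 2 above for Col17a1 (0.852). In injured ganglia at 72 h, replicate 4 stood below for Col2a1 (0.879).

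The injury response differed between 72 h and 24 h for Col5a3 (1.10), Col16a1 (−1.08) and Col11a1 (−0.70) on the log2 scale by edgeR's test of the difference.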

How the results depend on the processing

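No result changed direction. Of single genes, 257 values kept their side of the threshold and 18 lost it, for Col5a2, Col11a1, Col24a1 and Col16a1. The counts at 72 h stayed within 1.5 times of 4 higher and 3 lower under every alternative run. Each class's ratio of injured to naive mean was recomputed only with raw CPM and with the longest transcript length. Neither moved a ratio by more than 1 SD at either time. The class ratios were not recomputed with left-out libraries, the block or the other alternatives. Levels per kb themselves depend on the length used: with the longest transcript, a setting chosen after seeing the data, 4 of 6 chain ratios moved by more than 1 SD over libraries. At 24 h, the higher count of 2 became 5 with no filter on low counts, 6 with the replicate block and 2 to 4 with a library left out, the highest without naive replicate 1. The lower count of 0 became 1 with upper quartile scaling, 1 with DESeq2, 3 with no filter, 2 with the block and 0 to 1 with a library left out. For the difference of responses, the higher count of 1 became 2 with DESeq2. The lower count of 2 became 4 with the block and 1 to 4 with a library left out, lowest without naive 72 h replicate 3 and highest without naive 24 h replicate 1. In the naive comparison, the count of 4 became 10 with no filter, 1 to 6 with a library left out, and 1 without both 72 h libraries numbered 3, a setting chosen after seeing the data. Apart from the left-out libraries, the cause was not tested.

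Replicate numbers were not taken as pairs: same-numbered libraries correlated at 0.0470 to 0.101 in their deviations from group means, with 1 of 8 pairs over 0.1, although 7 of 8 injured and 8 of 8 naive libraries correlated best with their own number. With the block, the counts at 72 h were 4 higher and 3 lower, and the naive comparison had 5 higher. Depth limits the lowest members, Col4a6, Col6a4, Col6a6, Col2a1 and Col17a1.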
